A study of Homo sapiens with 8 samples.

Results

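DBH, which encodes dopamine beta-hydroxylase, and TH, which encodes tyrosine hydroxylase, held 9 of the 9962 single-base positions listed for N1-methyladenosine (m1A) in a neuroblastoma line in which TRMT6 was silenced. The positions were taken by gene symbol from the annotation of the deposited table. DBH held 7 positions and TH held 2, among 4945 genes with at least 1 position. Cells received a control or an siRNA that targets TRMT6 by transfection, and fragmented polyadenylated RNA was either kept as input or immunoprecipitated with an antibody against m1A. Each of the 4 groups (control input, control m1A, siTRMT6 input, siTRMT6 m1A) has 2 samples. The values used here were taken as the reads of the 2 control and 2 siTRMT6 m1A libraries, since the column names match the condition and the number but not the fraction. The titles call the line SK-N-BE, whereas its cell line field has SK-N-AS. Nothing in the labels states that replicates came from separate cultures. The p-values of the fits made here thus measure the spread between these libraries only, which may be technical.

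Noradrenaline is made from tyrosine in a short chain of enzymes. TH, a tetrahydrobiopterin-dependent enzyme of the cytosol, makes L-DOPA and is the rate-limiting step. DOPA decarboxylase then makes dopamine, and DBH, a copper enzyme of secretory vesicles that uses ascorbate, turns dopamine into noradrenaline. Neuroblastoma arises from the sympathoadrenal lineage, and both genes are standard markers of its noradrenergic state. TRMT6 pairs with the catalytic subunit TRMT61A to form the methyltransferase of tRNA m1A, which also acts on some mRNAs that fold like the tRNA T-loop.

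Listed positions held 8655 reads of control 1, 46007 of control 2, 40771 of siTRMT6 1 and 13812 of siTRMT6 2, which is not the sequencing depth. No deposited p-value exceeded 0.0478, which shows a filter on a test that, from its values, used the pooled reads of each condition. A listed 0 may mean an absence of reads or of a call. Input values are not used here, and TRMT6 had no listed position, so its silencing could not be checked. A difference in mRNA level and one in methylation therefore cannot be told apart, and neither can fewer cells and less RNA per cell. Of 12 noradrenergic marker genes, which include DBH and TH, 10 had a position (184 and 71.1 reads per 10000 listed reads in controls 1 and 2, 77.5 and 213 with silencing). Of 10 mesenchymal marker genes, VIM and TWIST1 had one (28.9 and 2.61 against 5.15 and 7.96). None of 4 glial, 3 blood and 3 epithelial marker genes was listed. The part of marker levels in the results below was not tested.

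DBH lies on the plus strand of chromosome 9 (hg38), at 133636363 to 133659329 in RefSeq. The transcript coordinates in the deposited table imply a transcript start at 133636360, 3 nt before the RefSeq start. The 30 bases from that start are shown because they hold the start codon from which the first listed DBH bases are counted (RefSeq, GRCh38.p14, plus strand, chr9:133636360-133636389, start codon in capitals).
DBH: ctcaccccagccATGcccgccctcagtcgc
Counted from the A of this start codon at 133636372, the listed base 133636661 lies in codon 97 and the listed base 133636665 in codon 98. These counts assume no intron between, as the deposited transcript positions 302 and 306 imply. TH lies on the minus strand of chromosome 11, at 2163929 to 2171815 in RefSeq. The sequence around the other listed bases and that of TH is not shown here.

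The DBH positions fell into 4 regions spread along the mRNA, when bases within 200 nt of each other were joined. In each region the control reads outnumbered the siTRMT6 reads, 62 against 29 over the whole gene, in raw sums. With each library scaled by its own listed reads, 2 of the 4 regions turned the other way. No region had reads in more than 1 control library and 1 siTRMT6 library. TH had 26 siTRMT6 reads in 1 region, from both siTRMT6 libraries, and 0 listed in the controls. Neither difference passed the test across genes. EdgeR called no gene in that test, and its smallest adjusted p, 0.386, was shared by TH.

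**Figure D1:**
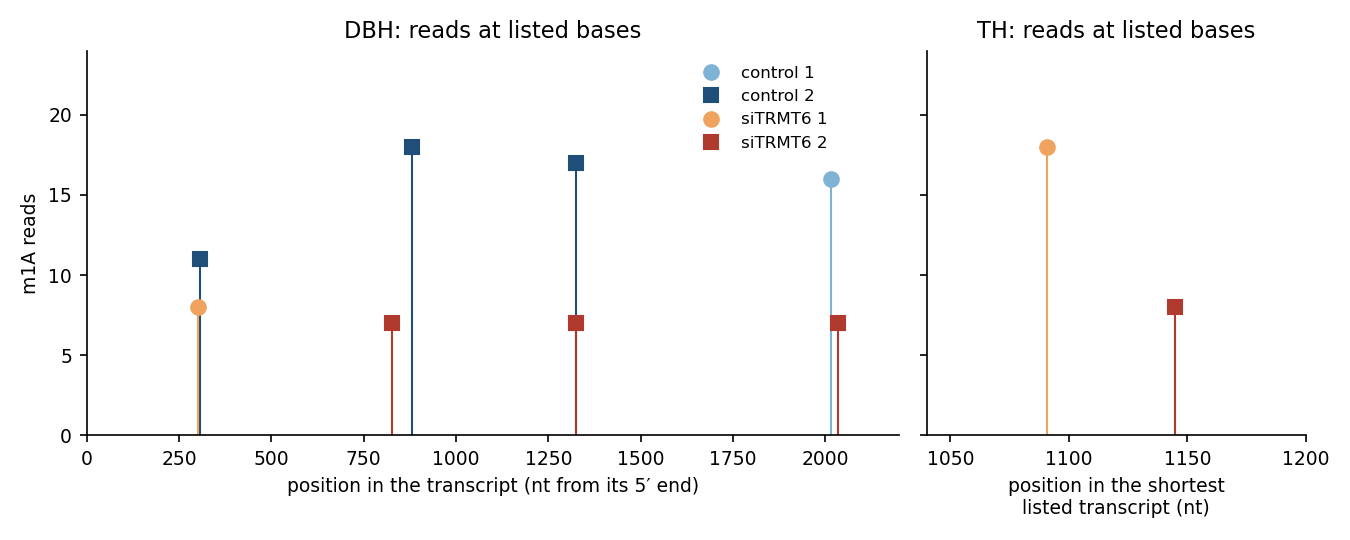
Reads (y axis) at each listed base of DBH (left) and TH (right) against its position in the transcript in nt (x axis), one colour per library. The DBH bases lie from 302 to 2034 in 4 clusters with 11, 18, 17 and 16 control reads against 7 or 8 siTRMT6 reads at a base, and the TH bases, drawn on the shortest listed transcript, lie 54 nt apart with siTRMT6 reads only.

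The first DBH region lay early in the coding sequence. Control 2 had 11 reads at 133636665 and siTRMT6 1 had 8 reads at 133636661, 4 nt upstream. Control 1 and siTRMT6 2 were listed at 0 at both bases. The region thus held 1 library of each condition at nearly the same height. The siTRMT6 share of its 19 reads was 42.1% (exact Clopper-Pearson 95% interval 20.3% to 66.5%), which spans equal numbers. Intervals given here cover counting error only, since they were computed on the summed reads of each condition. The reads carry no molecular identifiers, so repeated reads of a molecule would make the intervals too narrow. The intervals do not allow for the unlike listed reads of the libraries, so equal numbers are not a reference for the regions below.

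The second region lay in coding sequence 521 nt further along the transcript and 6818 nt along the genome, so introns separate it from the first. Control 2 had 18 reads at 133643537, the highest DBH count, and siTRMT6 2 had 7 at 133643483. Those bases lay 54 nt apart in the genome and in the transcript, so no intron falls between them. Control 1 and siTRMT6 1 were listed at 0. The siTRMT6 share of 25 reads was 28% (12.1% to 49.4%). The listed reads of siTRMT6 2 and control 2, the libraries of this region and the next, stood at a ratio of 0.300.

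The third region was a single coding base, 133651754, at position 1324 of the transcript. It was the only one of the 9 positions with reads in more than 1 library, with 17 reads in control 2, 7 in siTRMT6 2 and 0 listed in the others. The siTRMT6 share was 29.2% (12.6% to 51.1%). Only 14 of the 9962 positions had reads in both conditions, and all 14 had fewer siTRMT6 than control reads, by 0.86 to 1.63 on the log2 scale of raw sums. DBH, at -1.28, lay at the median of the 14. The filter on the pooled p-value leaves out bases where the conditions are alike.

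The fourth region lay in the 3' UTR, 714 to 733 nt before the RefSeq end of the gene. Control 1 had 16 reads at 133658596 and siTRMT6 2 had 7 at 133658615, 19 nt downstream. This was the only DBH region with control 1 reads, and control 2 and siTRMT6 1 were listed at 0. The siTRMT6 share of 23 reads was 30.4% (13.2% to 52.9%). The listed reads of siTRMT6 2 and control 1 stood at a ratio of 1.60. DBH-AS1, a non-coding RNA on the same stretch of chromosome 9, ends 1188 nt from the nearest of these bases and had no listed position. Each DBH position was annotated to 1 transcript, on 1 strand.

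TH had its positions near the 3' end of its coding sequence, 392 and 446 nt before the RefSeq end of the gene. SiTRMT6 1 had 18 reads at 2164375 and siTRMT6 2 had 8 at 2164321. Both controls were listed at 0 at both bases. The groups therefore did not overlap, and no fold is given against a group listed at 0. The bases lay 54 nt apart in the genome and in each of 4 listed TH transcripts, which number them 1091 to 1464 and 1145 to 1518. Both bases are thus in sequence that these 4 transcripts share. Of all 4945 genes, 4.47% had reads in both siTRMT6 libraries and none listed in a control, and 2.47% had the reverse, so TH was 1 of 221 such genes.

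The authors' deposited table called all 9 positions at an adjusted p below 0.05. From its values, that test used the pooled reads of each condition, so its p-values do not measure the spread between libraries. For DBH it gave 4 lower positions, with log2 fold changes of -5.35, -5.18, -4.64 and -1.46, and 3 higher, with 3.62, 3.62 and 3.82. For TH the authors' deposited table gave 2 higher positions, with 4.99 and 3.82. The smallest adjusted p in the authors' deposited table among these positions was 7.92e-05, at 133643537 in DBH, and the largest was 0.0249, at the base shared by control 2 and siTRMT6 2. Of all positions, 49.6% were called higher and 50.4% lower in the authors' deposited table, so being called says nothing particular of these genes. In each of the 3 DBH regions of more than 1 base, a position called lower lay within 54 nt of one called higher. At the other 8 bases the fold change set 1 library against libraries listed at 0, so summed regions are compared here.

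Summed by region, the log2 of siTRMT6 over control reads was -0.46, -1.36, -1.28 and -1.19 for DBH regions 1 to 4, and -1.10 for the gene. The median over all 1470 joined regions with reads in both conditions was -0.15 (quartiles -0.46 and 0.08). Fewer siTRMT6 than control reads were found in 56.7% of those regions, and in 80.8% on the scale of the authors' fold changes. Of the 1470 regions, 2.04% were as low as DBH region 2, 2.65% as low as region 3, 3.33% as low as region 4 and 25.6% as low as region 1. With each library scaled by its own listed reads these shares were 74.4% for region 2, 76.8% for region 3, 11.8% for region 4 and 26.2% for region 1. DBH was 1 of 3 genes with 4 or more such regions. In DYNC1H1 and PSMD3, the others, 3 of 4 regions were lower. These genes were picked out after their values were seen.

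The direction in DBH depended on how the libraries were scaled. Listed reads rise with the number of positions with reads: 819 in control 1, 4269 in control 2, 3607 in siTRMT6 1 and 1414 in siTRMT6 2. Regions held by 2 libraries only gave other ratios. Their median was 1.2 for control 2 over control 1 (5.32 for listed reads) and 0.727 for siTRMT6 2 over control 1 (1.60 for listed reads). Which scale is right was not tested. Per 10000 listed reads, control 2 had 3.91 in region 2 and siTRMT6 2 had 5.07, and in region 3 they had 3.695 and 5.07. Region 1 had 2.39 in control 2 and 1.96 in siTRMT6 1, and region 4 had 18.5 in control 1 and 5.07 in siTRMT6 2. With the 2 libraries of a condition averaged after this scaling, regions 2 and 3 were higher in siTRMT6 (log2 0.37 and 0.46) and regions 1 and 4 lower (-0.29 and -1.87). The whole gene had 18.5 and 9.998 reads per 10000 listed reads in the controls (mean 14.2 ± 6.002, SD, n = 2) and 1.96 and 15.2 in the siTRMT6 libraries (8.58 ± 9.36, SD, n = 2). These values overlapped, with siTRMT6 2 between the controls. TH had 4.41 and 5.79 in siTRMT6 1 and 2 (5.10 ± 0.97, SD, n = 2) and was listed at 0 in the controls. Both siTRMT6 libraries lay above both controls for 8.23% of all genes on this scale and below them for 4.65%.

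**Figure D2:**
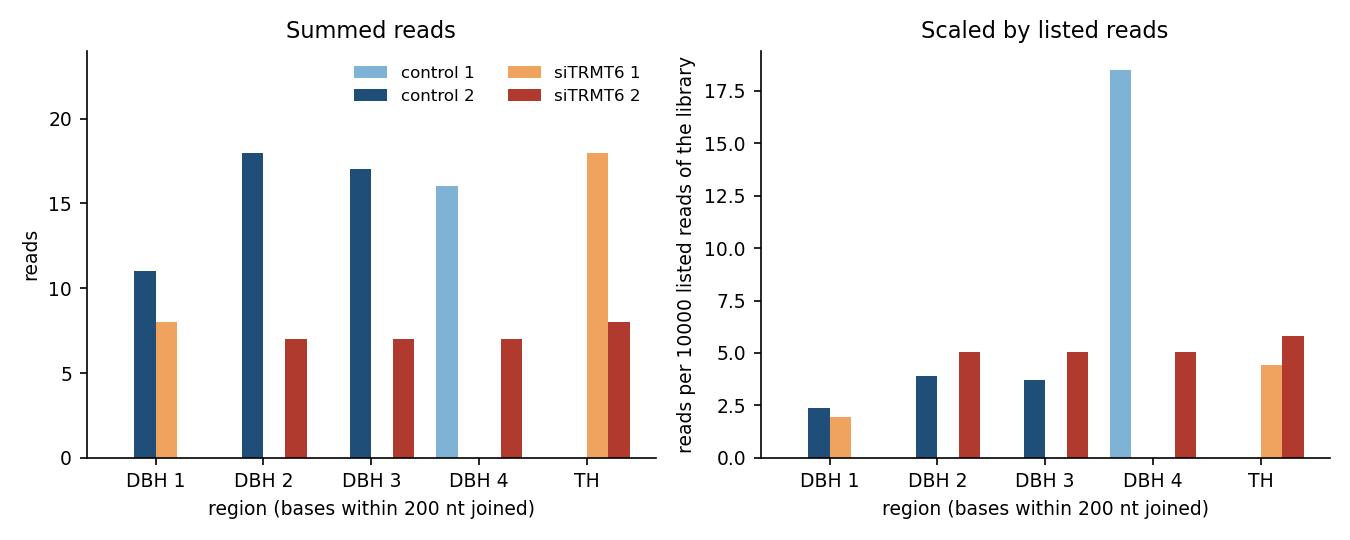
Bars give the reads of each library in the 4 DBH regions and the TH region (x axis), as summed reads (left) and per 10000 listed reads of that library (right). In summed reads the control bar is the taller in every DBH region (11 against 8, 18 against 7, 17 against 7 and 16 against 7), while after scaling siTRMT6 2 stands above control 2 in DBH regions 2 and 3.

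Each DBH region was also set beside all joined regions that held the same 2 libraries and no other. Over 199 regions with control 2 and siTRMT6 2, the median log2 of siTRMT6 2 over control 2 was -0.76 (quartiles -0.93 and -0.58), a ratio of 0.591, while their listed reads stood at a ratio of 0.300. DBH region 2, at -1.36, was the lowest of the 199, and region 3, at -1.28, was among the 7 lowest. Over 65 regions with control 1 and siTRMT6 2 the median was -0.46, and DBH region 4, at -1.19, was among the 2 lowest. Over 810 regions with control 2 and siTRMT6 1 the median was -0.11, and 7.28% were as low as DBH region 1, at -0.46. Relative to these medians DBH regions 1 to 4 lay at -0.35, -0.60, -0.52 and -0.73. All 4 DBH regions were thus on the low side of regions with the same libraries. They share libraries and a transcript, so they are not independent, and no test was made of this comparison, which was chosen after the data were seen. The filter on pooled p-values acts on every listed base of these regions, and in region 3 on both counts at once, where the reads fall on 1 base. The siTRMT6 counts were 8 in siTRMT6 1 and 7 in siTRMT6 2, beside median listed counts of 9 and 8. The control counts were 16 in control 1 and 11, 18 and 17 in control 2, beside medians of 8 and 9.

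**Figure D3:**
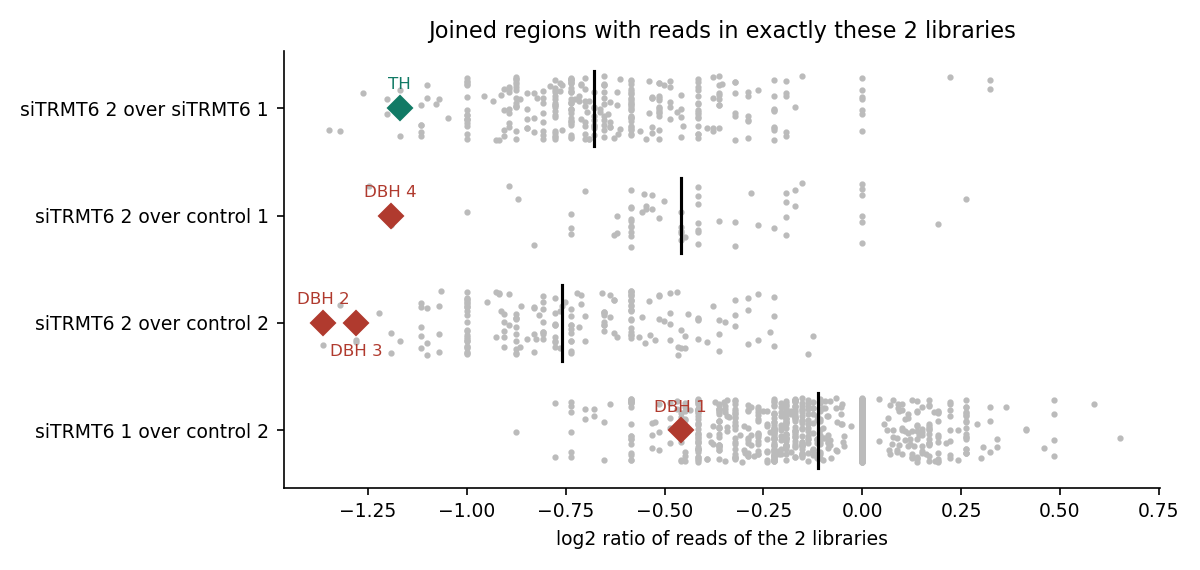
Each grey point is a joined region with reads in exactly the 2 libraries named on the y axis, at the log2 ratio of their reads (x axis, vertical scatter only for display), and black bars are medians. DBH regions (red) lie at -0.46, -1.36, -1.28 and -1.19, all left of the medians of -0.11, -0.76 and -0.46, and the TH region (green) lies at -1.17 in the siTRMT6 pair, where the median is -0.68.

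The 2 siTRMT6 libraries also differed from each other in TH. The log2 of siTRMT6 2 over siTRMT6 1 was -1.17 in the TH region, against a median of -0.68 (quartiles -0.81 and -0.49) over 314 regions with these libraries only. TH was among the 7 lowest of them. Per 10000 listed reads the order was the reverse, with 4.41 in siTRMT6 1 and 5.79 in siTRMT6 2. DBH had no region with both siTRMT6 libraries.

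The libraries were then tested as replicates with edgeR's quasi-likelihood test on the whole table. Among single positions, 34 passed the filter on low counts, 64.7% were called (38.2% higher and 26.5% lower), and the shared DBH base was the only member among the 34. The split was 13 higher and 9 lower with TMM, 13 and 1 with listed reads as library sizes, and 10 and 19 of 37 with equal library sizes, and DESeq2 called 0 of 34 (14 unadjusted). The shared DBH base was not called, with a log2 of -0.50 and an adjusted p of 0.957 (edgeR, n = 2 libraries per group). Unshrunken, the value was -0.51 with a standard error of 2.90. The sign of this value was not stable: with listed reads as library sizes in place of TMM scaling it was 0.24 (adjusted p = 0.899 in edgeR). It was -1.39 without control 1 and -6.00 without siTRMT6 2, which leaves silencing with no reads at this base.

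Among summed regions, edgeR called 0 of 525 (0.0%), while 131 (25.0%) had an unadjusted p under 0.05. DESeq2 called 1, with 28 unadjusted. DBH region 1 did not pass the filter. DBH regions 2, 3 and 4 had fitted log2 values of -0.56, -0.47 and -0.70, with standard errors of 3.47, 3.46 and 3.54 for the unshrunken values, and an adjusted p of 0.9995 each in edgeR. With listed reads as library sizes, regions 2 and 3 turned to 0.24 and 0.32. Without control 1 they had -1.59 and -1.51, and without siTRMT6 2 they had -6.08 and -6.00. Region 4 turned to 0.31 without siTRMT6 1, and was -1.69 without control 2 and -6.18 without siTRMT6 2. The values without siTRMT6 2, like that of the shared base, are set against no reads with silencing, so they depend on the prior count and are not bounds. The TH region had an edgeR p of 0.0114, adjusted 0.0618, and its adjusted p under the 6 alternatives that gave a value ran from 0.435 to 1. All 103 tested regions with reads in both siTRMT6 libraries and no control had an unadjusted p from 0.00295 to 0.0229 in edgeR, and the p of TH lay within that range. All 28 with both controls and no siTRMT6 library also had an unadjusted edgeR p under 0.05. The other 394 tested regions, DBH regions 2 to 4 among them, had 0.569 or more in edgeR. An unadjusted p under 0.05 thus went with which libraries had reads, so this test cannot decide whether the DBH regions differ. The smallest adjusted p of all 525 regions was 0.0606 in edgeR, so failing this test does not set TH apart. The fitted log2 of TH, 6.80, depends on the prior count and is not a bound.

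Summed per gene, edgeR called 0 of 975 genes (0.0%), while 126 (12.9%) had an unadjusted p under 0.05. DESeq2 called 1, with 47 unadjusted. DBH had a log2 of -0.53 with a standard error of 1.51 and an adjusted p of 0.9998 (edgeR). It was 0.087 without siTRMT6 1, -0.04 without control 2 and -2.02 without siTRMT6 2, so single libraries set its size and sign. TH had an unadjusted p of 0.0196 and an adjusted p of 0.386 (edgeR), and rested on siTRMT6 reads alone. No gene had a smaller adjusted p in edgeR, so failing this test does not set DBH or TH apart. DBH and TH lie at opposite signs in these fits, but the difference between them was not tested.

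**Figure D4:**
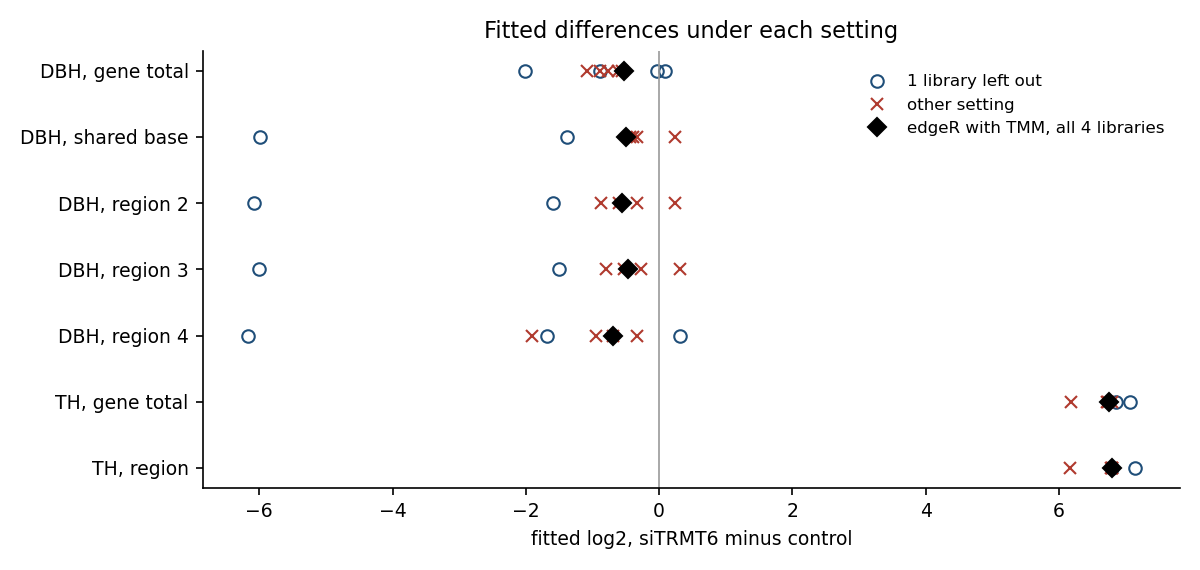
Fitted log2 differences (x axis, siTRMT6 minus control) for the DBH and TH values that passed the low-count filter (y axis), with all 4 libraries (black diamonds), with 1 library left out (open circles) and under other settings (crosses). DBH values lie on both sides of 0, from -2.02 to 0.087 for the gene, and the values near -6 are settings that leave siTRMT6 with no reads. TH values lie from 6.17 to 7.15, all against controls listed at 0.

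The m1A positions of the rest of the pathway were followed in 48 genes in 4 lists. Of these, 20 had a listed position, 8 passed the filter of the gene fit and 0 were called by edgeR, with 1 (GATA2) at an unadjusted p under 0.05. Over all 975 genes tested, edgeR called 0, and 12.9% had an unadjusted p under 0.05. DESeq2 also called 0 of the pathway genes, with 1 unadjusted, against 1 called and 47 unadjusted of all 975. In the list of synthesis and cofactor genes, 3 of 13 were listed, with 0 positions higher and 3 lower. Of all positions, the authors called 49.6% higher and 50.4% lower. DDC, the DOPA decarboxylase that acts between TH and DBH, had 7 reads in control 2 and 0 listed elsewhere. GCH1, the first enzyme of tetrahydrobiopterin synthesis, had 5 reads and QDPR, which regenerates that cofactor, had 7, in control 2 alone. None of these 3 genes passed the filter. The other 10 genes of the list had no listed position.

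Among 4 protein relatives only PAM, a copper monooxygenase related to DBH, was listed, with 11 reads in control 2 at 2 positions. The other 3 were not. Of 7 transport and breakdown genes, 2 were listed, with 2 positions higher and 5 lower (49.6% and 50.4% of all positions). SLC6A2, the noradrenaline transporter of the plasma membrane, had 47 reads in control 2 and 17 in siTRMT6 1 in its 3' UTR, at 3 positions (log2 -1.38, adjusted p = 0.9998 in edgeR). SLC18A1, a vesicular monoamine transporter, had 8 reads in control 1, 22 in the other control and 6 in siTRMT6 1 (log2 -2.40, adjusted p = 0.9998 in edgeR). No gene of these 3 lists had reads in siTRMT6 2, a library with reads at 14.2% of all listed positions. The median log2 of summed reads was -1.89 over these 2 genes, which had reads in both conditions, against -0.07 over 1933 genes with both.

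**Figure D5:**
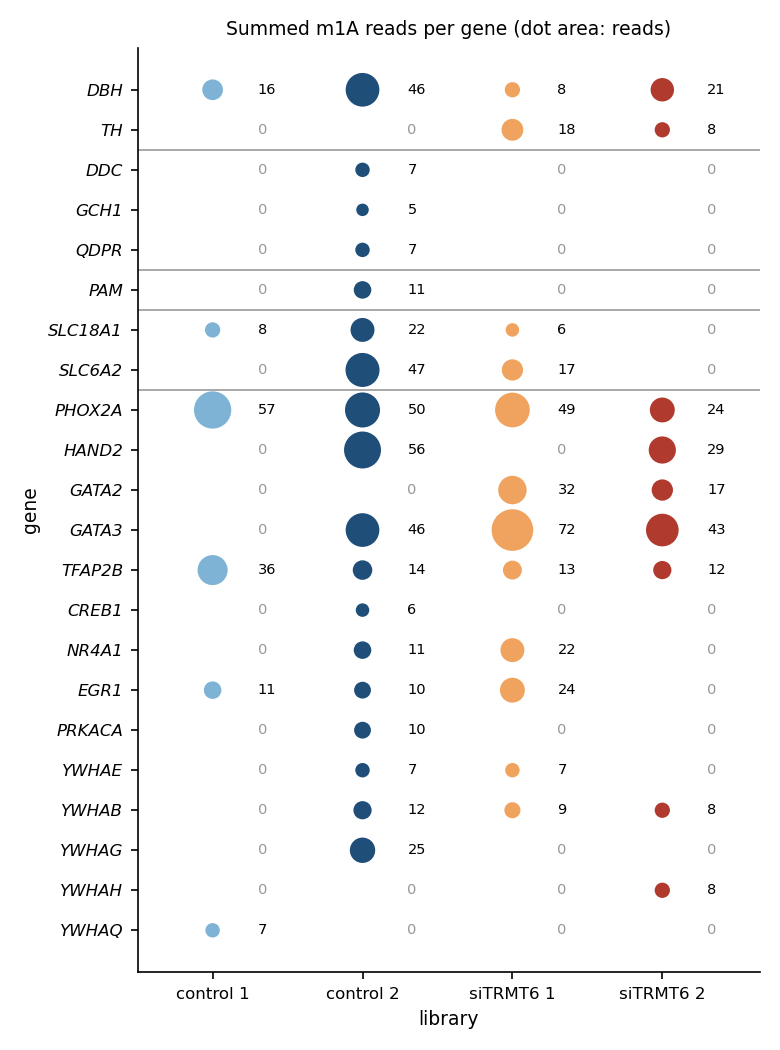
Summed reads per gene (rows) in each library (columns) for DBH, TH and the 20 listed pathway genes, with dot area in proportion to the reads printed beside it. Lines separate the members, synthesis and cofactor genes, the protein relative PAM, transport and breakdown genes, and regulators. DBH and PHOX2A have reads in all 4 libraries, as does TFAP2B, while TH and GATA2 have reads in both siTRMT6 libraries only. YWHAH has reads in siTRMT6 2 only.

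Of 24 regulators of TH and DBH, 14 were listed, with 21 positions higher and 17 lower (49.6% and 50.4% of all positions). The median log2 over the 8 of them with both conditions was 0.10. PHOX2A, a homeodomain factor that activates DBH, had 57 and 50 control reads against 49 and 24 siTRMT6 reads. GATA2, a zinc finger factor of the same lineage, had 32 and 17 siTRMT6 reads and was listed at 0 in both controls, the pattern of TH (unadjusted p = 0.046 and adjusted p = 0.386 in edgeR). GATA3, a related factor, had 0 and 46 in the controls against 72 and 43. HAND2, a basic helix-loop-helix factor, had 56 reads in control 2 against 29 in siTRMT6 2, and TFAP2B, an AP-2 factor, had 36 and 14 against 13 and 12. Among activity-regulated factors, NR4A1 had 11 reads in control 2 against 22 in siTRMT6 1, EGR1 had 11 and 10 against 24 in siTRMT6 1, and CREB1 had 6 in control 2. The kinase gene PRKACA, whose product phosphorylates TH, had 10 reads in control 2. Of 6 genes of the 14-3-3 family, whose proteins bind phosphorylated TH, YWHAE, YWHAB, YWHAG, YWHAH and YWHAQ were listed. YWHAG had 25 reads in control 2 and YWHAH had 8 in siTRMT6 2, each with 0 listed in the other libraries. YWHAE had 7 reads in control 2 and 7 in siTRMT6 1, YWHAB had 12 in control 2 against 9 and 8 with silencing, and YWHAQ had 7 in control 1.

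DBH had more listed reads than most genes: 136 of 4945 genes (2.75%) had more than its 91 reads and 2.97% had at least as many positions. TH, with 26 reads, was exceeded by 25.7% of genes. DBH was 1 of 146 genes with reads in all 4 libraries, while TH was listed in 2. The genes most like each member were found by the distance between their shares of reads over the 4 libraries, among genes with at least 3 positions and a total within 2-fold. For DBH the nearest of 518 genes were NEAT1 (33, 93, 0 and 38 reads in control 1, control 2, siTRMT6 1 and siTRMT6 2, distance 0.11), CCDC85C, CCNK, PA2G4 and SAFB. CCDC85C and CCNK share all 5 of their positions, so they count as 1. For TH the nearest of 903 genes were CNPY3 (21 and 9 siTRMT6 reads, distance 0.011), MDH2, RPL23A, BCAR1 and TSPAN3, all listed at 0 in the controls. RPL23A has near-identical pseudogenes, so its reads are uncertain. Likeness was measured over 4 libraries only.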

How the data were processed

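The values came from 1 table deposited by the authors, with 25539 lines for 9962 positions in 12150 transcripts. FastQC 0.11.3, STAR and the build hg38 are named in the submitters' processing notes. How positions were called, counted and tested is not given in the sources used here. The deposited columns hold, per the file headers, read counts of 4 libraries, the log2 fold change and the p-value with its adjusted form. Listed sites count from 0 and are given here counting from 1.

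Positions were counted once per gene, joined within 200 nt in a gene, and summed per region and gene. Counts were tested with edgeR 4.0.16 in R 4.3.3 (TMM, filterByExpr, quasi-likelihood test, Benjamini-Hochberg adjustment at 0.05), fitted over the whole table and checked on simulated counts. The simulated gene counts had far less spread between libraries than these data and no filter by call. Common dispersions here were 1.75 for positions, 4.62 for regions and 2.60 for genes, so that check does not show how the test fares. Standard errors were obtained from the unshrunken coefficient and its F statistic. DESeq2 1.42.0, other library sizes, no filter, a replicate block and leaving out each library were alternatives. TMM had few positions shared between libraries. A few genes of the pathway lists are not reported here. The members and lists were chosen with earlier results of these data known. The rule for named genes took both members, the pathway lists' genes with a position and the 5 most alike genes. Genome neighbours and cell type markers are named beyond it. Of the same-numbered libraries, deviations from the group means correlated at -0.024 over genes. Promoter sequences came from RefSeq (GRCh38.p14), which matched DBH.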

Additional observations from a re-analysis of the deposited data

How the results depend on the processing

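The 9 listed positions of DBH and TH fell to 4 at a deposited adjusted p below 0.01, to 3 below 0.001, to 5 with at least 10 summed reads and to 4 with at least 15. Of all listed positions, 58.6%, 22.1%, 44.6% and 18.8% met these limits, in the same order. The 22 single positions called by edgeR rose to 29 of 37 with equal library sizes (10 higher and 19 lower, against 13 and 9), fell to 14 with listed reads as library sizes (13 and 1), and to 0 with DESeq2 (14 unadjusted), without the filter (0 unadjusted), and without any 1 of the 4 libraries (0 to 0, with 0 to 5 unadjusted). With the replicate block they fell to 0 (0 unadjusted). Libraries with the same number share only that number, and the block changed no call of DBH or TH. DESeq2 called 1 region and 1 gene where edgeR called 0. The signs of DBH values turned as follows: with listed reads as library sizes, the shared base had 0.24, region 2 had 0.24 and region 3 had 0.32. Without siTRMT6 1, region 4 had 0.31 and the gene 0.087. Over left-out libraries region 4 ranged from -6.18 to 0.31, the gene from -2.02 to 0.087, the shared base from -6.00 to -1.39, region 2 from -6.08 to -1.59 and region 3 from -6.00 to -1.51. With each library scaled by its own listed reads and averaged, which was added after the data were seen, region 2 had 0.37 and region 3 had 0.46. The cause of these changes was not tested. Joining within 50, 100, 500 or 1000 nt turned no DBH region, although region 2 of DBH and the TH region split at 50 nt. Under equal library sizes the shared base, DBH regions 2 to 4 and TH did not pass the filter and have no value, as for TH without control 2 or siTRMT6 1. Counts of 7 to 18 reads limit each base.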

Other observations

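IGF2, a fetal growth factor and the neighbour of TH beyond the insulin gene, lies 14755 nt from the nearest listed TH base. Over 6 positions it had 0 and 103 control reads and 134 and 65 siTRMT6 reads, and INS and INS-IGF2 had none. SARDH, whose span lies 803 nt from the nearest listed DBH base, had no listed position. Of 9 genes near the members 3 were listed, with 6 positions higher and 3 lower (49.6% and 50.4% of all positions). They were IGF2, its antisense gene IGF2-AS (9 reads in control 2 and 6 in siTRMT6 2) and VAV2 (7 in siTRMT6 2). No position of DBH or TH was annotated to a second gene.

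The 3 DBH bases with siTRMT6 2 reads each had 7, although they lie in separate regions of the transcript, while the 3 bases with control 2 reads had 11, 18 and 17. Equal counts at distant bases of a gene were common in that library. Among 332 pairs of siTRMT6 2 bases in the same gene and more than 200 nt apart, 32.8% had equal counts. The share was 12.3% of all pairs among the bases compared, which were 1332 of the 1414 with reads in that library. The values were 25.8% of 1324 pairs against 8.88% in siTRMT6 1, 17.1% of 1749 against 8.05% in control 2 and 16.9% of 71 against 8.84% in control 1. These also used part of the bases with reads: 3428 in siTRMT6 1, 4061 in control 2 and 773 in control 1. GATA3, another gene of the noradrenergic lineage, had 3 bases with 12 siTRMT6 2 reads each, at 8054788, 8055543 and 8058751 of chromosome 10, and 7 at 8074000. Its control 2 bases had 23 and 23 reads, and its siTRMT6 1 bases had 25, 25, 11 and 11. The pairs of bases compared here share genes and libraries and were examined after the counts had been seen, so no test is given.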
